A study of Gallus gallus with 5 samples.

Results

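RNA of chicken feather follicles that carried a knockdown vector against the long non-coding RNA lnc7831 was compared with RNA of wild-type follicles. Every gene with a mean of at least 1 FPKM (fragments scaled to transcript length and library size) over the 5 libraries of the study was taken, which left 11031 of 17108 genes. The comparison uses 3 of the 5 libraries, 1 of lnc7831 knockdown and 2 of wild type. The other 2 libraries, 1 of lnc3500 knockdown and 1 labelled Wnt5a-over expression, entered the filter and the scaling and are given beside the results.

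The follicles were those of wing flight feathers, which had been plucked so that they regrew. Genes were knocked down with the lentiviral vector pLL3.7 or overexpressed with pLVX-Zsgreen. Each library was made from the total RNA of 5 pooled follicles. The labels name the tissue as feather follicle and the source as dermal papilla. They give no age or breed, name no library with an empty vector and do not say whether the wild-type libraries came from separate birds. The tag T4 stands only in the wild-type titles and is not explained, and its meaning and the vectors cannot be told apart. With 1 knockdown library, a difference has no replicate check, and sizes are given against both wild-type libraries.

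A feather follicle is a tube of epidermis around a mesenchymal core. The dermal papilla at its base instructs the overlying epidermis to proliferate and form the feather through WNT, BMP, FGF and Hedgehog signals, and it sets off regrowth after plucking. Long non-coding RNAs are transcripts without a protein product, some of which regulate other genes. No gene in the table carries the name lnc7831, so the level of the target itself was not checked.

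Each library's FPKM were divided by its median ratio to the mean library, and all levels below are such scaled FPKM. The factors were 1.26 for lnc7831 knockdown, 1.19 for lnc3500 knockdown, 1.16 for the library labelled Wnt5a-over expression, and 0.751 and 0.784 for wild type. Without this step the median gene stood 0.639 above wild type on the log2 scale. Read depth is unknown, since FPKM keep no counts. ACTB, a cytoskeletal actin, had 3846 scaled FPKM in lnc7831 knockdown, against 3434 and 3308 in wild type. GAPDH, an enzyme of glycolysis, had 2279 in lnc7831 knockdown, between the wild-type levels of 2850.3 and 1872. Markers of epidermis, dermal fibroblasts and dermal papilla were present, apart from KRT5, at 0 in every library, and COL1A1 and CRABP1, which had no entry. In lnc7831 knockdown the epidermal keratin KRT14 had 3491 scaled FPKM, the fibroblast collagen COL3A1 1127 and the papilla phosphatase ALPL 151.

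The knockdown library had high levels of the lipid enzymes MOGAT1 and PHYH, the hormone precursor Pomc, the ligand WNT11 and most collagens tested. It had low levels of the B-lineage genes MZB1 and IGJ, the metallothioneins MT1 and MT4 and the fatty acid elongase ELOVL3. On the log2(scaled FPKM + 1) scale, 181 of 11031 genes (1.64%) exceeded each wild-type library by 2-fold or more, and 146 (1.32%) were lower than each by as much. On the FPKM as deposited the same rule gave 1154 higher and 78 lower genes, so every direction here is relative to the median gene. At any size, 31.0% of the genes lay above both and 32.3% below both, with a median log2 difference from the wild-type mean of 0.00239. The counts of list members given below are to be read against these shares. The wild-type libraries themselves differed by 2-fold or more in 1331 genes (12.1%). That count takes 1 pair of libraries, whereas the rule above asks for 2-fold against both wild types at once. Against wild type 1 alone, lnc7831 knockdown had 939 genes above and 416 below by 2-fold or more. Against wild type 2 alone it had 452 above and 375 below. In pooled tissue, fewer cells of a type and less RNA per cell cannot be told apart.

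**Figure D1:**
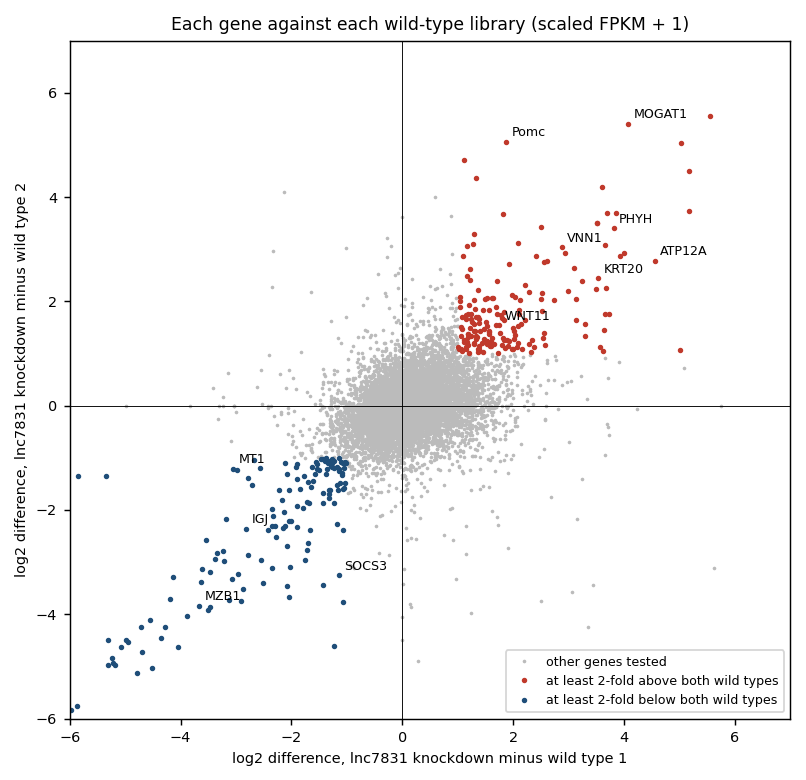
Each point is 1 of the tested genes, placed by its log2 difference in scaled FPKM + 1 between lnc7831 knockdown and wild type 1 (x axis) and wild type 2 (y axis). The 181 red genes exceed each wild-type library by 2-fold or more, the 146 blue genes are lower than each by as much, and 14 genes lie outside the axes.

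Limma, a linear model that borrows variance across genes, called 4 genes higher in lnc7831 knockdown (0.0363% of those tested) and 0 lower, at a Benjamini-Hochberg adjusted p of 0.05. At an unadjusted p under 0.05 there were 186 higher (1.69%) and 149 lower genes (1.35%). All 4 called entries were listed at 0 in both wild-type libraries, so their wild-type spread was 0 and they passed the filter on low values only through treated libraries, which left them no way not to be higher. They were a pair of entries for SNORA62, a small nucleolar RNA, with 4899 and 5384 scaled FPKM in lnc7831 knockdown (adjusted p = 0.0220 each). The microRNA gene gga-mir-3523 had 2378 in lnc7831 knockdown and 1114 in lnc3500 knockdown (adjusted p = 0.0226). The fourth was the unnamed ENSGALG00000028891 (adjusted p = 0.0123). It and the SNORA62 pair were at 0 in all 4 other libraries and were tested only because of their level in the knockdown library. A value of exactly 0 may stand for an estimate that failed, so no fold is given for them. Among genes above 0 in all 5 libraries, the smallest adjusted p was 0.234, so every difference below is a size and not a call.

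Among named genes above 0 in every library, the one farthest above both wild-type libraries was MOGAT1, which makes diacylglycerol from monoacylglycerol. It had 112 scaled FPKM in lnc7831 knockdown, 6.91 and 8.26 in lnc3500 knockdown and the library labelled Wnt5a-over expression, and 5.69 and 1.67 in wild type. Its log2 difference from the wild-type mean was 4.74 with a standard error of 0.67 (limma, adjusted p = 0.563). PHYH, the peroxisomal enzyme that begins the breakdown of phytanic acid, had 349.6 scaled FPKM in lnc7831 knockdown, 48.4 and 79.1 in the other treated libraries and 23.9 and 32.2 in wild type. Its log2 difference was 3.61 with a standard error of 0.40 (limma, adjusted p = 0.386). Both genes stood far above all 4 other libraries. HACL1, which acts later in that breakdown, had 26.6 scaled FPKM in lnc7831 knockdown, 10.2 and 16.6 in the other treated libraries and 13.5 and 8.64 in wild type. ACOX2, a peroxisomal oxidase of branched chains, had 8.56 scaled FPKM in lnc7831 knockdown, against 2.33 and 3.23 in wild type, but 5.83 and 7.72 in the other treated libraries. CPT1A, the gate for fatty acids into mitochondria, had 23.7 in lnc7831 knockdown, with 11.7 and 16.9 in the other treated libraries and 13.1 and 10.9 in wild type. Of the 30 tested genes of peroxisomal and mitochondrial fatty acid oxidation, 19 were above both wild-type libraries and 4 below both, with a median log2 difference of 0.37. Against the mean of the other treated libraries, their median was 0.097.

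Single enzymes of other pathways were also above both wild-type libraries, some of them far above. VNN1, a pantetheinase that frees pantothenate, had 19.3 scaled FPKM in lnc7831 knockdown, 3.80 and 4.72 in the other treated libraries and 1.77 and 1.48 in wild type. DPEP1, a membrane dipeptidase, had 327 scaled FPKM in lnc7831 knockdown, against 93.3 and 85.02 in the other treated libraries and 69.7 and 64.5 in wild type. In both, the knockdown library exceeded all 4 others by a wide margin. EBP, an isomerase of cholesterol synthesis, had 454 scaled FPKM in lnc7831 knockdown, 257 and 406 in the other treated libraries and 103 and 110.5 in wild type. PHGDH, the first enzyme of serine synthesis, had 25.4 scaled FPKM in lnc7831 knockdown, 19.1 and 17.8 in the other treated libraries and 3.95 and 2.61 in wild type. All 3 treated libraries therefore exceeded wild type for EBP and PHGDH. SRD5A2, which reduces testosterone to its more active form, had 399 scaled FPKM in lnc7831 knockdown, 154 and 68.7 in the other treated libraries, 184 in wild type 1 and 14.3 in wild type 2. The list of fatty acid and triglyceride genes had a median log2 difference of 0.28, but -0.17 against wild type 1 and 0.61 against wild type 2, so its sign differed between the wild-type libraries. Sterol synthesis had a median of -0.041, -0.50 against wild type 1 and 0.30 against wild type 2. Of its 20 genes, 6 were above both, against 31.0% of all genes.

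ELOVL3, which lengthens very long fatty acids, ran the other way. It had 0.360 scaled FPKM in lnc7831 knockdown, 9.68 and 13.3 in the other treated libraries and 3.87 and 3.11 in wild type. The knockdown library was the lowest of the 5, while the other treated libraries were the highest. DGAT2, which makes triglyceride, had 1.37 scaled FPKM in lnc7831 knockdown, 2.59 and 4.72 in the other treated libraries and 8.42 and 2.93 in wild type.

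Further genes far above both wild-type libraries were in part as high in the other treated libraries. ATP12A, a proton pump of epithelia, had 25.1 scaled FPKM in lnc7831 knockdown, 25.1 and 40.8 in the other treated libraries and 0.112 and 2.80 in wild type. UPK1B, a membrane plaque protein of the urothelium, had 28.6 scaled FPKM in lnc7831 knockdown, 10.9 and 15.3 in the other treated libraries and 1.31 and 5.16 in wild type. TMPRSS11D, a surface protease first known from airways, had 6.30 scaled FPKM in lnc7831 knockdown, 1.08 and 1.08 in the other treated libraries and 0.782 and 0.721 in wild type. TMPRSS11D was high in the knockdown library alone, whereas ATP12A was as high or higher in the other treated libraries. HSDL1, a protein related to steroid dehydrogenases, had 72.6 scaled FPKM in lnc7831 knockdown, 20.5 and 36.7 in the other treated libraries and 14.03 and 15.1 in wild type. ADH6, an alcohol dehydrogenase, had 3.96 scaled FPKM in lnc7831 knockdown, 2.13 and 2.81 in the other treated libraries and 0.260 and 0.140 in wild type. PDZK1IP1, a small membrane protein, was about equally high in all 3 treated libraries, with 26.7 scaled FPKM in lnc7831 knockdown, 29.95 and 26.5 in the other treated libraries and 2.15 and 5.68 in wild type.

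**Figure D2:**
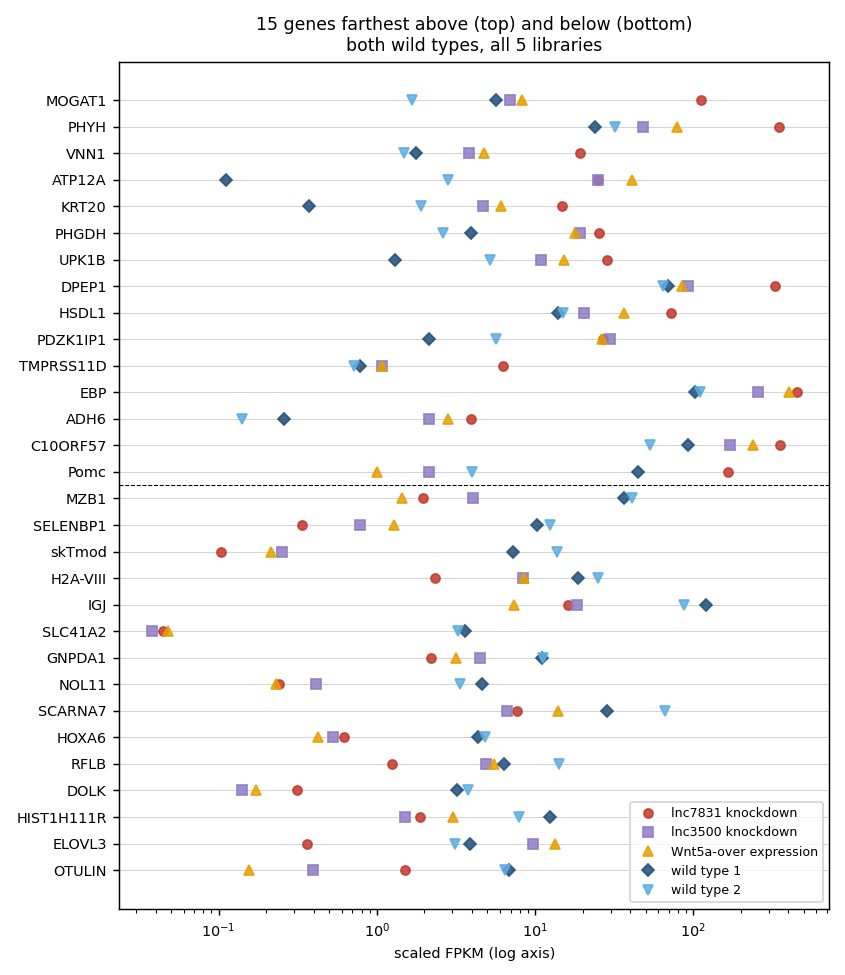
Scaled FPKM (log axis) in all 5 libraries of the 15 named genes farthest above both wild-type libraries (upper rows) and the 15 farthest below both (lower rows), among genes above 0 in all 5. MOGAT1 stood at 112 in lnc7831 knockdown, and most of the lower genes were low in all 3 treated libraries.

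Hormone genes of the melanocortin and stress axis were high. Pomc, the precursor of melanocyte-stimulating hormone and corticotropin, had 166 scaled FPKM in lnc7831 knockdown, 2.15 and 1.002 in the other treated libraries, and 44.5 and 4.01 in wild type 1 and wild type 2. The knockdown library was the highest, but wild type 1 exceeded wild type 2 by a wide margin too, and the log2 difference of 3.47 had a standard error of 1.47. CRH, the hormone that releases corticotropin in the pituitary, had 48.1 scaled FPKM in lnc7831 knockdown, 9.80 and 13.02 in the other treated libraries and 20.8 and 4.87 in wild type. PCSK1, a protease that cleaves the Pomc precursor, had 3.84 scaled FPKM in lnc7831 knockdown, 1.91 and 2.29 in the other treated libraries and 0.355 and 1.02 in wild type. Of 8 tested genes of this list, 6 were above both wild-type libraries, 3 of them at least 2-fold, and 2 below both. The pigment gene TYRP1, an enzyme of melanin synthesis, had 11.2 scaled FPKM in lnc7831 knockdown, 1.25 and 0.242 in the other treated libraries, and 4.004 and 0.240 in wild type. The wild-type libraries differed strongly from each other in TYRP1, as they did in Asip, an antagonist of melanocortin signalling, with 14.7 scaled FPKM in lnc7831 knockdown, 1.46 and 7.98 in the other treated libraries and 18.1 and 0.694 in wild type. Melanocyte markers summed to 48.4 scaled FPKM in lnc7831 knockdown, 31.2 and 29.9 in the other treated libraries, and 29.1 and 39.7 in wild type, with PMEL at 0 in all 5 libraries. Of the 5 tested markers, 3 were above both wild-type libraries, TYRP1 among them, while MITF and SOX10 lay between the wild types. MITF, the largest part of the sum, had 18.4 in lnc7831 knockdown and 14.3 and 26.0 in wild type. The part of pigment cell number in these values was not tested.

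Among the signalling ligands, WNT11, a ligand of the non-canonical branch, had 179 scaled FPKM in lnc7831 knockdown, 22.6 and 59.5 in the other treated libraries and 52.6 and 60.7 in wild type. Its log2 difference from wild type was 1.64 with a standard error of 0.37, and the knockdown library was the highest of the 5. WNT5A, the ligand that the label of another library names, had 128 scaled FPKM in lnc7831 knockdown, 36.7 in lnc3500 knockdown, 64.99 in the library labelled Wnt5a-over expression and 39.5 and 82.0 in wild type. WNT2B had 39.4 scaled FPKM in lnc7831 knockdown, 15.7 and 9.88 in the other treated libraries and 17.9 and 4.49 in wild type. WNT7B, an epidermal ligand, had 7.81 scaled FPKM in lnc7831 knockdown, 5.16 and 7.45 in the other treated libraries and 2.999 and 2.70 in wild type, so the other treated libraries exceeded wild type too. WNT16 was below both wild-type libraries, with 1.92 scaled FPKM in lnc7831 knockdown, 6.28 and 5.84 in the other treated libraries and 8.11 and 4.28 in wild type. Of 12 tested ligands, 7 were above both wild-type libraries and 2 below both. Their median log2 difference was 0.83, but 1.30 against wild type 1 and 0.067 against wild type 2.

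Of 15 tested WNT receptors and co-receptors, 8 were above both wild-type libraries and 1 below both, none of them 2-fold. Their median log2 difference was 0.45 against wild type 1 and 0.23 against wild type 2. FZD8, a frizzled receptor, had 83.0 scaled FPKM in lnc7831 knockdown, 62.1 and 52.3 in the other treated libraries and 52.9 and 40.3 in wild type. Antagonists and enhancers were split, with 6 of 16 above both and 6 below both, against 31.0% and 32.3% of all genes. RSPO1, an enhancer of WNT signals, had 7.36 scaled FPKM in lnc7831 knockdown, 15.2 and 10.6 in the other treated libraries and 19.2 and 16.9 in wild type, and was the lowest of the 5. Targets and feedback genes had a median log2 difference of 0.064.

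The Hedgehog ligand SHH and its receptor PTCH1 were above wild type. SHH, the ligand of the feather epidermis, had 20.7 scaled FPKM in lnc7831 knockdown, 2.60 and 1.90 in the other treated libraries and 5.70 and 10.7 in wild type. PTCH1, a receptor that is itself induced by the pathway, had 12.6 scaled FPKM in lnc7831 knockdown, 3.87 and 3.51 in the other treated libraries and 5.87 and 4.57 in wild type. The knockdown library was the highest of the 5 for both genes, and neither passed 2-fold against both wild-type libraries on the log2(scaled FPKM + 1) scale, PTCH1 narrowly with a log2 difference of 0.99 from wild type 1. Of 11 tested Hedgehog genes, 6 were above both wild-type libraries and 1 below both, with a median of 0.77 against wild type 1 and 0.11 against wild type 2. GAS1, a co-receptor, had 11.2 scaled FPKM in lnc7831 knockdown, close to the 10.1 of wild type 2, while wild type 1 stood at 0.203.

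Notch and retinoic acid genes held a few members past 2-fold. NRARP, a feedback inhibitor of Notch, had 223 scaled FPKM in lnc7831 knockdown, 194 and 167 in the other treated libraries and 37.5 and 90.3 in wild type, so it was high in all 3 treated libraries. DTX1, a ubiquitin ligase of the pathway, had 3.13 scaled FPKM in lnc7831 knockdown, 1.10 and 2.34 in the other treated libraries and 0.650 and 0.702 in wild type. In all, 10 of 17 Notch genes were above both wild-type libraries and 2 below both. STRA6, the receptor that takes up retinol, had 11.9 scaled FPKM in lnc7831 knockdown, 2.25 and 1.57 in the other treated libraries and 4.34 and 0.501 in wild type. CRABP2, which carries retinoic acid to its receptors, had 576 scaled FPKM in lnc7831 knockdown, 298 and 394 in the other treated libraries and 156 and 239 in wild type. Of 10 tested retinoic acid genes, 5 were above both wild-type libraries and 3 below both. Their median log2 difference was 0.34, with 0.76 against wild type 1 and 0.20 against wild type 2. BMP and activin genes were split, with 8 of 23 above both and 7 below both, against 31.0% and 32.3% of all genes. No member of that list reached 2-fold. Of 16 FGF genes, 8 were below both and 2 above both, with a median log2 difference of -0.082 that was 0.59 on deposited values.

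**Figure D3:**
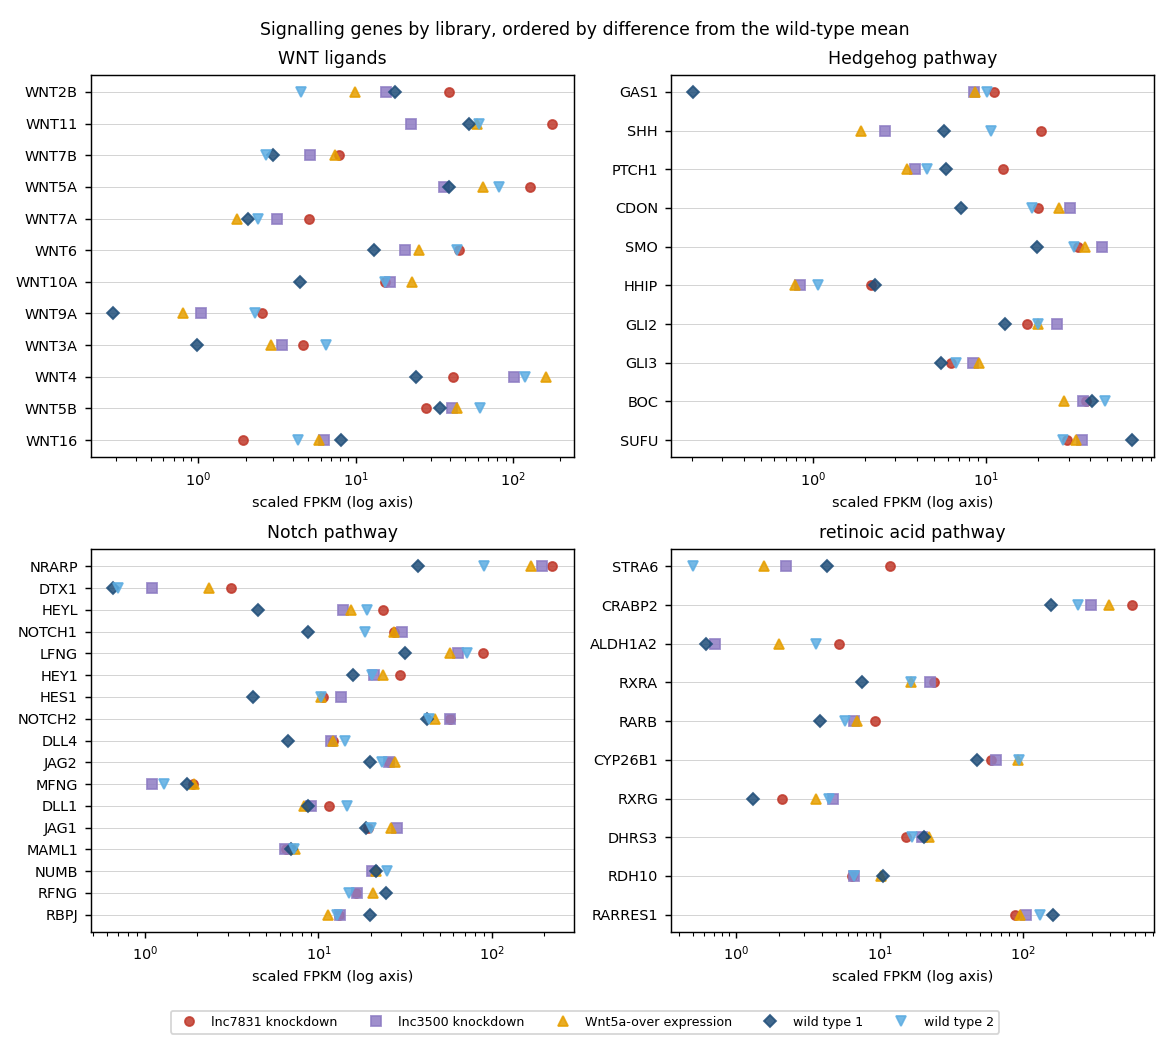
Scaled FPKM (log axis) in all 5 libraries of WNT ligands and of Hedgehog, Notch and retinoic acid genes reported here, with genes ordered by their difference from the wild-type mean. WNT11, SHH, PTCH1 and STRA6 were highest in lnc7831 knockdown, and the wild-type libraries often lay far apart.

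Among genes of the dermal papilla and of patterning, ALPL, the alkaline phosphatase that marks papilla cells, had 151 scaled FPKM in lnc7831 knockdown, 49.2 and 62.9 in the other treated libraries and 31.7 and 47.4 in wild type. ALPL was the only 1 of 6 fixed papilla markers above both wild-type libraries. RSPO3 was below both, with 3.11 scaled FPKM in lnc7831 knockdown and 4.38 and 7.26 in wild type. NOG, HHIP, BMP4 and VCAN lay between the wild types. The homeobox factors MSX1 and MSX2 lay on opposite sides of wild type. MSX1 had 24.5 scaled FPKM in lnc7831 knockdown, 11.2 and 9.99 in the other treated libraries and 9.36 and 8.38 in wild type. MSX2 had 21.1 in lnc7831 knockdown, 58.2 and 66.5 in the other treated libraries and 40.3 and 48.5 in wild type. Both thus stood outside the range of the 4 other libraries. Of 21 papilla markers, 7 were above both wild-type libraries and 4 below both, against 31.0% and 32.3% of all genes.

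Collagen genes were above wild type in most cases. Of 19 collagen genes tested, 17 were above both wild-type libraries and 0 below both, with a median log2 difference of 0.63, 0.83 against wild type 1 and 0.51 against wild type 2. COL3A1, a fibrillar collagen of skin, had 1127 scaled FPKM in lnc7831 knockdown, 628 and 457 in the other treated libraries and 505 and 357 in wild type. COL8A1, a network-forming collagen, had 38.7 scaled FPKM in lnc7831 knockdown, 22.9 and 41.2 in the other treated libraries and 6.80 and 15.7 in wild type. THBS2, a matrix glycoprotein that binds cells, had 263 scaled FPKM in lnc7831 knockdown, 158 and 191 in the other treated libraries and 106 and 97.3 in wild type. No other member of the collagen and non-collagen matrix lists passed 2-fold against both wild-type libraries. COL13A1, a membrane-bound collagen outside those lists, had 24.3 scaled FPKM in lnc7831 knockdown, 4.76 and 6.57 in the other treated libraries and 8.77 and 4.41 in wild type. Fibroblast markers summed to 5476 scaled FPKM in lnc7831 knockdown, 4333 and 3525 in the other treated libraries, and 3403 and 2805 in wild type. That sum was carried by COL1A2, with 3169.7 scaled FPKM in lnc7831 knockdown and 1616 and 1278 in wild type, and by COL3A1. The other markers were LUM, with 688 in lnc7831 knockdown and 665 and 670.2 in wild type, and DCN, below both with 492 in lnc7831 knockdown and 616 and 499 in wild type. The part of fibroblast number in the matrix values was not tested. MMP10 and TIMP4, a matrix protease and an inhibitor of such proteases, were at least 2-fold below both. MMP10 had 3.71 scaled FPKM in lnc7831 knockdown, 15.6 and 3.68 in the other treated libraries and 26.9 and 9.77 in wild type, and TIMP4 had 1.79 in lnc7831 knockdown, 3.50 and 2.44 in the other treated libraries and 4.83 and 5.01 in wild type.

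Epidermal genes were also high, and for several the other treated libraries were as high. COL17A1, a hemidesmosome collagen that anchors the basal epidermis, had 245 scaled FPKM in lnc7831 knockdown, 138 and 216 in the other treated libraries and 18.8 and 89.4 in wild type. LAMB3, a chain of the basement membrane laminin of skin, had 35.5 scaled FPKM in lnc7831 knockdown, 27.4 and 30.6 in the other treated libraries and 7.18 and 16.2 in wild type. ITGA6, the integrin chain that binds that laminin, had 46.4 scaled FPKM in lnc7831 knockdown, 50.1 and 52.3 in the other treated libraries and 21.5 and 16.1 in wild type. KRT20, a keratin of simple epithelia, had 14.8 scaled FPKM in lnc7831 knockdown, 4.68 and 6.10 in the other treated libraries and 0.372 and 1.90 in wild type. Of 28 epidermal markers, 18 were above both wild-type libraries, 5 of them at least 2-fold, and 3 below both. The fixed epidermal markers summed to 5433 scaled FPKM in lnc7831 knockdown, 5711 and 6759.9 in the other treated libraries, and 2097 and 3666 in wild type, with KRT5 at 0 throughout. KRT14 and KRT15 made up most of that sum in every library except wild type 1. Without them the sum was 1417 scaled FPKM in lnc7831 knockdown, 2296 and 2757 in the other treated libraries, and 1231 and 1081 in wild type. PKP1, a desmosome protein, was below both with 214 in lnc7831 knockdown and 238 and 225 in wild type, and EPCAM, CLDN1 and CLDN4 lay between the wild types. The part of the epidermal share of the tissue in these values was not tested.

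Several immune genes were low. MZB1, a chaperone of antibody-secreting cells, had 1.95 scaled FPKM in lnc7831 knockdown, 4.06 and 1.43 in the other treated libraries and 36.3 and 41.2 in wild type. IGJ, the joining chain of secreted antibodies, had 16.2 scaled FPKM in lnc7831 knockdown, 18.4 and 7.39 in the other treated libraries and 120.5 and 87.6 in wild type. CD79B, part of the B cell receptor, had 0.760 scaled FPKM in lnc7831 knockdown, 0.993 and 0.320 in the other treated libraries and 2.94 and 4.37 in wild type. The 3 B-lineage genes were thus low in all 3 treated libraries. GZMA, a protease of cytotoxic lymphocytes, had 2.06 scaled FPKM in lnc7831 knockdown, 1.57 and 1.80 in the other treated libraries and 10.6 and 5.88 in wild type. Of 22 leukocyte markers, 15 were below both wild-type libraries and 3 above both, with a median log2 difference of -0.43 that turned to 0.25 on deposited values. The fixed leukocyte markers summed to 87.8 scaled FPKM in lnc7831 knockdown, 47.7 and 63.1 in the other treated libraries, and 136 and 141 in wild type, and 6 of 7 were below both. Interferon-stimulated genes had 11 of 15 below both and 0 above both, none of them 2-fold. Their median was -0.54, or 0.072 on deposited values, with -0.21 against wild type 1 and -0.93 against wild type 2. Against the mean of the other treated libraries it was 0.092. SOCS3, a feedback inhibitor of cytokine signalling, had 16.5 scaled FPKM in lnc7831 knockdown, 75.6 and 57.9 in the other treated libraries and 37.7 and 166 in wild type. The knockdown library was the lowest of the 5 for SOCS3, and the wild-type libraries spread widely.

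**Figure D4:**
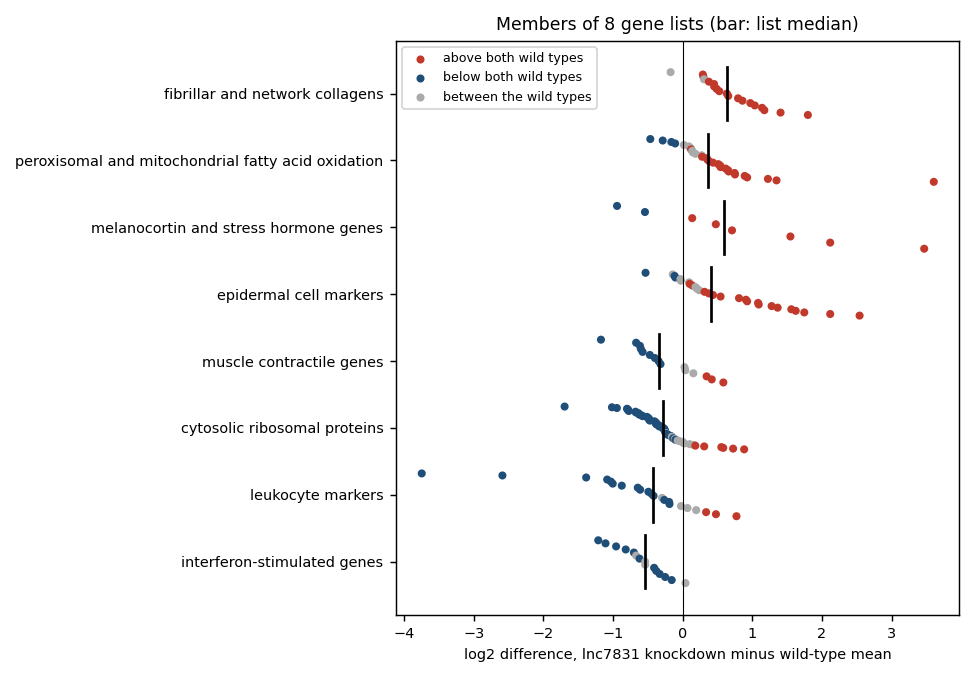
Log2 difference between lnc7831 knockdown and the wild-type mean for each tested member of 8 gene lists, coloured by whether it lay above both, below both or between the wild-type libraries, with a bar at the median. Collagens lay almost all above both, and cytosolic ribosomal proteins and interferon-stimulated genes mostly below both, a direction that turned on deposited values (medians of 0.43 and 0.072).

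The metallothioneins MT1 and MT4, which bind zinc and copper, were below both wild-type libraries. MT1 had 6439.6 scaled FPKM in lnc7831 knockdown, 15860.2 and 16330.3 in the other treated libraries and 53568 and 14847 in wild type, and MT4 had 1038 in lnc7831 knockdown, 1426 and 1604 in the other treated libraries and 6635 and 2135 in wild type. Wild type 1 was far above wild type 2 for both. Cytosolic ribosomal proteins had 42 of 59 members below both and 6 above both, with a median log2 difference of -0.29 that turned to 0.43 on deposited values. RPS29 was the only member past 2-fold, with 1182 scaled FPKM in lnc7831 knockdown, 1266 and 1495 in the other treated libraries and 4973 and 2951 in wild type. Nuclear-encoded genes of the respiratory chain had 26 of 48 below both and 10 above both, with a median of -0.21 that turned to 0.47 on deposited values. Muscle contractile genes had 9 of 15 below both, with a median of -0.35 that turned to 0.29 on deposited values. Cell cycle genes were above both in 24 of 54, below both in 4 and between the wild types in 26. Their median log2 difference was 0.16, with 0.036 against wild type 1 and 0.36 against wild type 2. UBE2C, which helps degrade mitotic regulators, had 276 scaled FPKM in lnc7831 knockdown, 222 and 166 in the other treated libraries and 121 and 106 in wild type. Adhesion molecules were above both in 15 of 26 and below both in 0. SLC2A1, the main glucose transporter of many cells, had 89.7 scaled FPKM in lnc7831 knockdown, 77.6 and 86.1 in the other treated libraries and 33.8 and 39.9 in wild type. HBG2, a haemoglobin chain, had 45.1 scaled FPKM in lnc7831 knockdown, 22.3 and 18.7 in the other treated libraries and 16.8 and 13.5 in wild type. It was the only 1 of 15 listed red blood cell genes tested, and HBAA and HBAD were at 0 in all 5 libraries.

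Immediate early genes were above both wild-type libraries in 7 of 15 and below both in 1. NR4A3, a nuclear receptor induced quickly by many signals, had 18.8 scaled FPKM in lnc7831 knockdown, 32.3 and 17.96 in the other treated libraries and 4.54 and 5.33 in wild type, and no other member passed 2-fold. HSPA5, the main chaperone of the endoplasmic reticulum, had 577 scaled FPKM in lnc7831 knockdown, 277 and 292 in the other treated libraries and 410.0 and 318 in wild type. Heat shock and unfolded protein genes as a list had a median log2 difference of 0.19. Of these 25 genes, 9 were above both and 3 below both, against 31.0% and 32.3% of all genes. SPP1, the matrix phosphoprotein osteopontin, had 12.5 scaled FPKM in lnc7831 knockdown, 51.7 and 34.7 in the other treated libraries and 22.1 and 51.5 in wild type, the lowest of the 5. ADIPOQ, the fat cell hormone adiponectin, had 206 scaled FPKM in lnc7831 knockdown, 431 and 403 in the other treated libraries and 342 and 464 in wild type. Fat cell markers summed to 282 scaled FPKM in lnc7831 knockdown, 444 and 412 in the other treated libraries, and 682 and 478 in wild type. ADIPOQ was the largest part of that sum in each library, but in wild type 1 FABP4 was nearly as large. FABP4, a fatty acid carrier, had 61.9 scaled FPKM in lnc7831 knockdown, 11.5 and 5.84 in the other treated libraries, 318 in wild type 1 and 12.02 in wild type 2. PLIN1, a lipid droplet coat protein, had 13.7 scaled FPKM in lnc7831 knockdown, 1.43 and 2.46 in the other treated libraries, 21.8 in wild type 1 and 2.51 in wild type 2. Both lay between the wild types, and the adipocyte list had a median log2 difference of -0.68 against wild type 1 and 1.18 against wild type 2. Endothelial markers summed to 78.01 scaled FPKM in lnc7831 knockdown, 79.8 and 76.8 in the other treated libraries, and 84.5 and 101 in wild type. PECAM1 alone was below both, with 32.1 in lnc7831 knockdown and 46.4 and 56.3 in wild type. TEK and KDR were above both, and CDH5 lay between the wild types. Of 19 tested genes of the endothelial list, 9 were above both and 3 below both, against 31.0% and 32.3% of all genes. The part of these cell types in the lipid values was not tested.

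Of 46 gene lists, 24 had a median above 0 against each wild-type library, 8 had one below 0 against each, and 14 were mixed. Only 43 of the lists had at least 5 tested members. The microRNA list held 1 tested gene, gga-mir-3523, at 0 in both wild types, so its median could not be below 0. The small nucleolar RNA list held 5 entries, among them the SNORA62 pair, and the red blood cell list held 1. Many of the lower genes were listed at 0. Of the 146, 44 were at 0 in lnc7831 knockdown, and 33 in all 3 treated libraries, while 12 of the 181 higher genes were at 0 in both wild types. By a like measure, 52 of the 146 lower and 35 of the 181 higher genes were at 0 in at least 1 library. Of all 11031 genes tested, 182 were. Among the lower genes above 0 in every library was SLC41A2, a magnesium transporter, with 0.0446 scaled FPKM in lnc7831 knockdown, 0.0377 and 0.0478 in the other treated libraries and 3.61 and 3.28 in wild type. GNPDA1, which converts glucosamine phosphate to fructose phosphate, had 2.19 scaled FPKM in lnc7831 knockdown, 4.46 and 3.16 in the other treated libraries and 10.99 and 11.2 in wild type. Entries for DOLK, H2A-VIII, HOXA6, NOL11 and SELENBP1 occur more than once in the table, so their low values are uncertain. Both entries of DOLK, HOXA6, NOL11 and SELENBP1 were at least 2-fold below both wild-type libraries. H2A-VIII had an entry that was not low, with 28.8 FPKM as deposited in lnc7831 knockdown and 20.4 and 13.2 in wild type. Scaling lowers the knockdown value and raises those of wild type, and after it this entry lay between the wild types. Whether reads were split between entries was not tested.

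Set against the other 2 treated libraries, the same fit called 3 genes higher in lnc7831 knockdown (0.0272%), the SNORA62 pair and ENSGALG00000028891, and 0 lower. Those 3 are at 0 in every other library, so this restates the values above. There were 146 higher (1.32%) and 132 lower (1.20%) at an unadjusted p under 0.05. These comparisons share the knockdown library, and those of the other treated libraries share the wild types. By size alone, 204 genes (1.85%) were at least 2-fold above both other treated libraries and 189 (1.71%) at least 2-fold below both. Of the 181 genes high against wild type, 60 were also among the 204, and 39 of those were above 0 in all 5 libraries. Of the 146 low genes, 30 were also among the 189, and 24 of those were above 0 in all 5 libraries. The rest were listed at 0 in at least 1 library. Pomc, SHH, WNT11, PHYH and MOGAT1 were higher and ELOVL3, OSTN and CREM lower than every other library. OSTN, a secreted peptide of bone and muscle, had 22.8 scaled FPKM in lnc7831 knockdown, 189 and 112 in the other treated libraries and 52.7 and 114 in wild type. CREM, a factor that answers cyclic AMP, had 16.7 scaled FPKM in lnc7831 knockdown, 62.4 and 58.2 in the other treated libraries and 44.9 and 42.8 in wild type. ISLR2, a membrane protein of neurons, had 96.8 scaled FPKM in lnc7831 knockdown, 23.8 and 30.8 in the other treated libraries and 30.5 and 22.2 in wild type. ApoD, a lipid carrier, had 38.7 scaled FPKM in lnc7831 knockdown, 3.95 and 10.1 in the other treated libraries and 10.2 and 2.08 in wild type.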

How the data were processed

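Total RNA was extracted with Trizol and sequenced, per the labels' protocols. The deposited FPKM were computed per gene by the authors. TopHat2 2.1.0, Cufflinks 2.2.1 and the build galGal4 were used per the submitters' processing notes, with roles, strand use and scaling not given in the sources used here. For scaling, a geometric mean over the 5 libraries was formed for genes above 0 in all, and a library's factor was the median of its ratios to that mean. Then log2(scaled FPKM + 1) was taken, and the filter kept genes whose deposited FPKM averaged 1 or more. A fold on this scale understates low genes. LRP11 was the last gene inside this filter, with a mean of 1.00006 FPKM, and COL19A1 the first outside, with 0.998719.

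Groups follow the labels. Genes at least 2-fold above or below each wild-type library were counted without a test. Limma 3.58.1 in R 4.3.3 fitted all 5 libraries with a variance trend, two-sided, with Benjamini-Hochberg adjustment over all genes. It has 1 residual degree of freedom, from wild type, and 2.70 prior ones, and the fit takes the spread of a lone treated library to equal that of wild type. The p-values measure only the spread of those libraries, which may be technical. The step was tested on simulated data, in which all libraries of a gene were drawn with the same spread. That test cannot tell whether a lone treated library varies like wild type. Named were the 15 genes farthest from the nearer wild type in each direction, list members past 2-fold, the 3 largest differences of each list, WNT5A, ACTB, GAPDH and genes limma called. SRD5A2, CPT1A, OSTN, CREM, ISLR2, ApoD, GZMA, COL13A1, COL1A2, LUM, DCN, PKP1, FABP4, PLIN1, KRT14, EMID1, NRP2 and DYNLL1 were chosen after their values were seen. The members and lists were chosen with earlier results of these data known. Alternatives were another scaling, pseudocount, filter and fold, and each wild type left out. A few selected genes are not reported here.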

Additional observations from a re-analysis of the deposited data

How the results depend on the processing

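No paired analysis was possible with 1 lnc7831 knockdown library, and the treated titles carry no replicate number. On deposited values, without scaling, 1154 genes passed the 2-fold rule upwards and 78 downwards, against 181 and 146 as reported, and 44 lists had a median above 0 against each wild type and 0 below. Against 1 wild type alone, 452 to 939 genes were above and 375 to 416 below, with wild type 2 alone giving 452 and 375 and wild type 1 alone 939 and 416, and 15 lists were below in both cases. A 4-fold rule gave 40 and 62, a mean of at least 5 FPKM 82 lower genes, and only genes above 0 in all 5 libraries, chosen after seeing the data, 94. Limma's 4 higher calls became 0 with a pseudocount of 0.1, 0 over genes above 0 in all 5 libraries and 252 with no filter. Its 0 lower calls became 3 with upper-quartile scaling and 8 with no filter. Against the other treated libraries, the 3 higher calls became 5 with upper-quartile scaling, 0 with a pseudocount of 0.1, 0 over genes above 0 in all 5 libraries and 218 with no filter, and the 0 lower calls became 1 with upper-quartile scaling and 168 with no filter. The cause was not tested. Of the 260 calls against wild type with no filter, 244 were at 0 in both wild types. All 95 selected genes past the 2-fold rule kept their direction under every alternative that tested them. Their selection by size against each wild type left little room for another outcome, so this is no check of them. On deposited values, 85 of the 95 kept a log2 difference of at least 1 from the wild-type mean. Depth is unknown, so what it limits cannot be stated.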

Other observations

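Other genes, chosen after their values were seen, were highest or lowest in lnc7831 knockdown. EMID1, a secreted matrix protein, had 143 scaled FPKM in lnc7831 knockdown, 41.98 and 40.3 in the other treated libraries and 43.5 and 48.02 in wild type. NRP2, a receptor for semaphorins and vascular growth factors, had 102 scaled FPKM in lnc7831 knockdown, 53.6 and 45.6 in the other treated libraries and 34.4 and 42.3 in wild type. DYNLL1, a dynein light chain, had 82.1 scaled FPKM in lnc7831 knockdown, 157 and 174 in the other treated libraries and 311 and 221 in wild type.

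By the gene order of RefSeq, 3 of 5615 adjacent pairs with both genes tested had both past 2-fold against both wild types: RNF14 with GNPDA1, both low, and EMID1 with DTX1 and ATP12A with SCN3B, both high. Symbols matched RefSeq for 9011 of 9898 named genes tested, and 160 of those 9011 were past 2-fold against both wild types. The 3 pairs are to be read against that share, and an effect of position was not tested.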
